A study of Rattus norvegicus with 8 samples.

Results

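AP-1 is a family of basic leucine zipper (bZIP) transcription factors, and 9 of its genes are described here across rat vascular smooth muscle cells: Fos, Fosb, Fosl1, Fosl2, Jun, Junb, Jund, Atf3 and Maff. They were chosen by gene name, with earlier results of these data known. On the array, 15 of 31099 probe sets are annotated to 1 of these symbols, and the brightest probe set of each gene was used, which gave 9 of the 11377 genes tested. The other 6 probe sets served as a check. The cells came from the thoracic aorta of Sprague-Dawley rats, all male, and were grown with 10% serum for 2 passages, then transfected with siRNA for 48 h and treated for 3 h. The 4 groups of 2 Affymetrix arrays each were siGiver with 100 nM angiotensin II (Ang II), siGiver with phosphate-buffered saline (PBS), non-targeting siRNA (siNTC) with 100 nM Ang II, and siNTC with PBS. Giver is a long non-coding RNA described in smooth muscle of vessels, and how far the siRNA lowered it was not analysed here. The labels name neither the number of animals nor separate cultures for the 2 arrays of a group. The p-values below therefore cover the spread between arrays alone, and that spread may be purely technical.

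Fos proteins (Fos, Fosb, Fosl1 and Fosl2) cannot pair with themselves and bind DNA as dimers with a Jun protein, whereas Jun, Junb and Jund can also pair with each other. Such dimers recognise the AP-1 element, which was searched here as TGANTCA with any base at N. Dimers that hold an Atf or Creb protein prefer TGACGTCA, the cyclic AMP response element. Atf3 is a stress-induced member that often represses as a homodimer, and Maff is a small Maf protein that has a bZIP domain but no activation domain of its own. Several of these genes are immediate early genes, transcribed within minutes of a stimulus without new protein synthesis. In vascular smooth muscle, Ang II acts through the type 1 angiotensin receptor, a G-protein-coupled receptor upstream of the ERK and JNK kinases, and induction of Fos by Ang II is a classical response of these cells.

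Promoter windows of 300 bases (250 before and 50 after the annotated start, RefSeq, GRCr8) were found for 6 of the 9 members. None was found for Fos, Jun or Atf3, so the counts below leave these genes out. The Fosb window does not reach the 5′ end of the annotated gene (below). The windows of Fosl1, Junb, Fosb and Maff are printed because the Ang II responses of these genes differed between the siRNA arms (below). That of Jund is printed because its response did not pass that test. The response of Fosl2 did not pass either, and its window was searched but is not printed. Capitals mark TGACG, the core of the cyclic AMP response element, in either orientation, the whole element TGACGTCA, which contains TGACG on both strands, and TATAA on the coding strand. The windows are chr1:212183635-212183934 for Fosl1 (plus strand), chr19:40080876-40081175 for Junb (plus strand), chr1:88089135-88089434 for Fosb (minus strand), chr7:112792537-112792836 for Maff (plus strand) and chr16:18769722-18770021 for Jund (minus strand), each written 5′ to 3′ along its gene.
Fosl1: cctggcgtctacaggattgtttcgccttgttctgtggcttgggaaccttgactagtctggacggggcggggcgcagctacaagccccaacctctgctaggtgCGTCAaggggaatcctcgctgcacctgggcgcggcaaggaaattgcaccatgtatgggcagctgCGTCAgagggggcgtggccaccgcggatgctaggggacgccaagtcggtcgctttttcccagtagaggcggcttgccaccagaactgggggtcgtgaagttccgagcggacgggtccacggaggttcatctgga
Junb: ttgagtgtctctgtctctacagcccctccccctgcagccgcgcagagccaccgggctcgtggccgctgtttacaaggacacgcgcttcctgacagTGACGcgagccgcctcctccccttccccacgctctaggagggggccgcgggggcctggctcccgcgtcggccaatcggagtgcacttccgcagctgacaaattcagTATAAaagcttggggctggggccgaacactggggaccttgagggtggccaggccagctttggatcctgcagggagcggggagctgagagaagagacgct
Fosb: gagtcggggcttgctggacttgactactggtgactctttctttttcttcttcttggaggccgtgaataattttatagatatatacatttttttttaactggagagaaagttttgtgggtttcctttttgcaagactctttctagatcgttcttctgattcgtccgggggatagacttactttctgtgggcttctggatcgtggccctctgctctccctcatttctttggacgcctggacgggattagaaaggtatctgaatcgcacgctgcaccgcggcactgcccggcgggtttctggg
Maff: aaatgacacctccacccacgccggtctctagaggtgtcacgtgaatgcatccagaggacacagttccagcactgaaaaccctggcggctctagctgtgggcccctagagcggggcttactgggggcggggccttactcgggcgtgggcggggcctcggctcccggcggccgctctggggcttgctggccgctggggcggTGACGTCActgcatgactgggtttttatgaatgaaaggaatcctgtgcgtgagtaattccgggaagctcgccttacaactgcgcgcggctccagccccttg
Jund: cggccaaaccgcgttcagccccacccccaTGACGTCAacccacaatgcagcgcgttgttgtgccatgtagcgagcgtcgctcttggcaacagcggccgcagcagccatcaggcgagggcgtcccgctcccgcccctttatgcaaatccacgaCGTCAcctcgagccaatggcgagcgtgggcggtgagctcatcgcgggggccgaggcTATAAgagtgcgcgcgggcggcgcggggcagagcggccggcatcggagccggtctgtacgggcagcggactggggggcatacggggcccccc
The whole element TGACGTCA was present in 2 of the 6 member windows, those of Maff at positions -51 to -44 and Jund at -221 to -214 from the start, and in 1.83% of 33469 rat windows of this length searched on both strands. TGACG was present in 4 of the 6, those of Fosl1, Junb, Maff and Jund, and in 21.2% of all windows. The Fosb window holds neither TGACG nor TATAA on its coding strand, so it has no capitals. It lies inside the annotated span of the gene (chr1:88082324-88089506) and holds no base before the 5′ end of that span. The counts over 6 windows include it, although it may not be the promoter. The pattern TGANTCA, with any middle base, reads the same on both strands except at that base. This pattern and the CArG box of serum response factor were in none of the 6, against 7.33% and 1.64% of all windows. These matches are letters in a short window and do not show binding.

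The labelled cell type was checked against markers. All 8 smooth muscle markers (among them Tagln, Acta2, Myh11 and Myocd) passed the filter on low values, and none of the 5 endothelial markers on the array did. Of 6 macrophage markers, Cd14 and Cd68 passed and the others, Ptprc among them, did not. All 5 adventitial fibroblast markers passed, and their mean log2 level was 7.91 in siGiver Ang II, 8.08 in siGiver PBS, 7.69 in siNTC Ang II and 8.0 in siNTC PBS arrays; the mean over smooth muscle markers was 10.32, 10.23, 9.91 and 9.97 in the same order. The difference between the 3′ and 5′ beta-actin control probe sets, a measure of RNA integrity, was 0.23 to 0.30 log2 over the 8 arrays. The 5S ribosomal RNA control probe set read 7.71 and 7.77 in siGiver Ang II, 7.64 and 7.62 in siGiver PBS, 8.88 and 8.93 in siNTC Ang II and 8.15 and 8.24 in siNTC PBS arrays. The part of these differences in the results below was not tested. In such bulk samples a change in the make-up of the culture and a change of RNA per cell cannot be told apart.

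Ang II raised most of the family, and its effect was called larger in siGiver than in siNTC cells for 6 of the 9 members. Among these 6, the calls of Fos and Atf3 did not hold in every alternative fit (below). In siGiver cells 7 members rose and none fell, led by Fosl1 (3.29-fold), Junb (2.82-fold), Fos (2.41-fold) and Fosb (2.28-fold). In siNTC cells 6 members rose and none fell, and the highest changes were 1.56-fold for Fosl1, 1.55-fold for Fos and 1.52-fold for Junb. The siNTC calls of Fosb and Maff did not hold in every alternative fit (below). Counts are at a Benjamini-Hochberg adjusted p under 0.05 in limma over all 11377 genes, of which 16.3% were called with Ang II in siGiver cells (9.11% higher, 7.17% lower) and 6.14% in siNTC cells (3.96% higher, 2.17% lower). The median member difference was 0.94 log2 in siGiver and 0.39 log2 in siNTC cells, beside medians over all genes of -0.0275 and 0.00584. Arrays with Ang II lay wholly above arrays with PBS for 8 of 9 members in siGiver cells and 9 of 9 in siNTC cells, a pattern met by 26.7% and 28.2% of all genes; the opposite pattern was met by none of the members, against 35.7% of all genes in siGiver and 24.5% in siNTC cells.

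The difference between the 2 Ang II effects (siGiver minus siNTC) was tested directly as an interaction. It was positive and past the threshold for Fosl1, Junb, Fosb, Fos, Maff and Atf3, 6 of 9 members, against 3.35% of all genes called in that direction. It was negative and past the threshold for none of the 9, against 2.87% of all genes (6.21% in either direction). The median over members was 0.63 log2, beside -0.0217 over all genes. Jun, Fosl2 and Jund did not pass. All 5 comparisons use the same 8 arrays, and those that involve a group share its arrays.

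**Figure D1:**
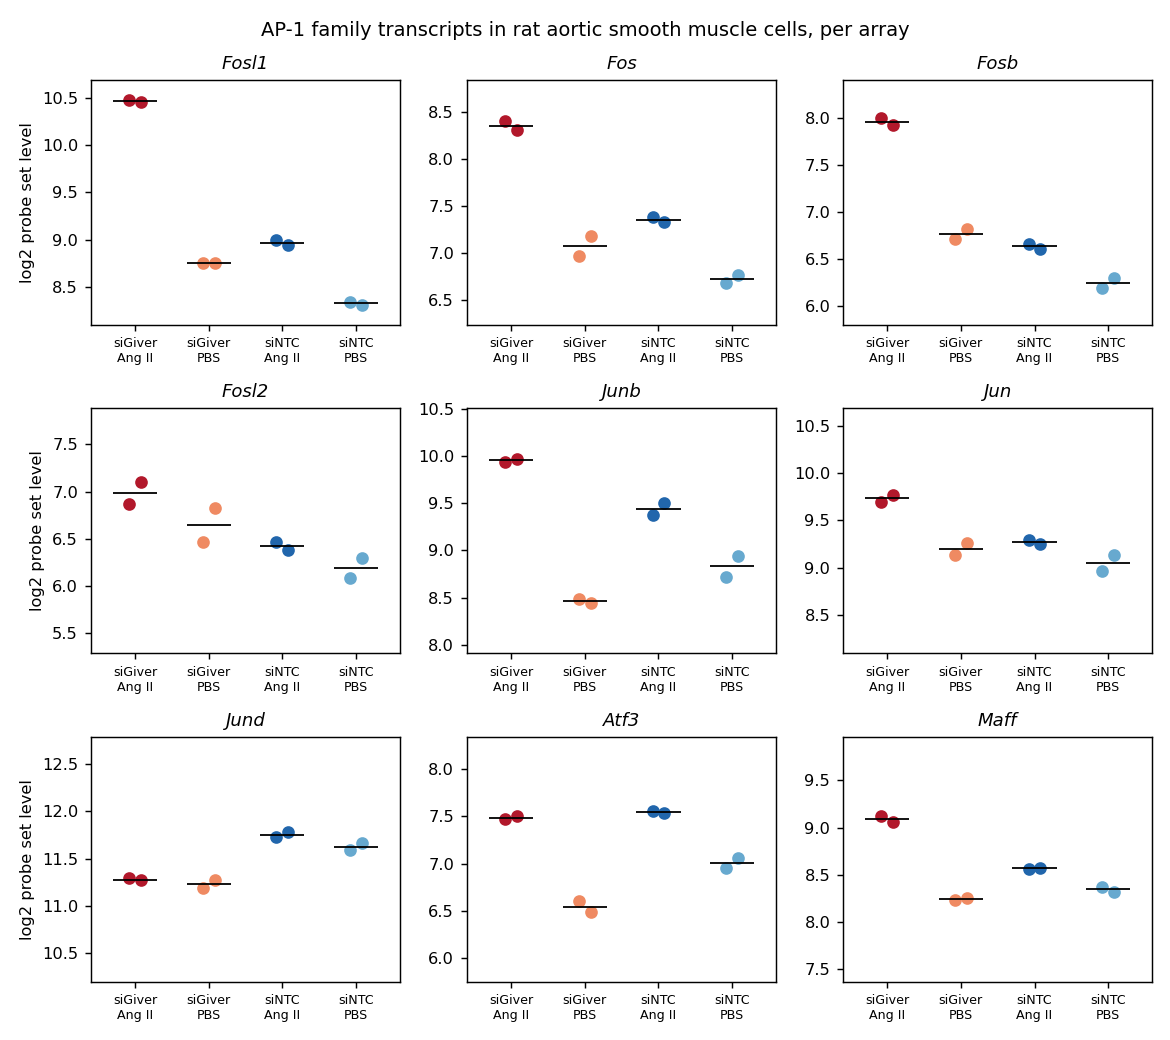
Log2 probe set level of each AP-1 gene in every array (points, 2 per group) with the group mean (line), for siGiver Ang II, siGiver PBS, siNTC Ang II and siNTC PBS; every panel spans the same log2 range. Fosl1, Fos, Fosb, Fosl2, Junb, Jun and Maff are highest in siGiver cells with Ang II, whereas Jund is lower in both siGiver groups than in both siNTC groups.

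Among Fos proteins, Fosl1 (Fra-1), which lacks the strong C-terminal activation domain of Fos and is itself a known AP-1 target, had the steepest response. Its log2 level was 10.48 and 10.46 in siGiver arrays with Ang II and 8.75 in both siGiver arrays with PBS. In siNTC cells it was 9.0 and 8.94 with Ang II and 8.34 and 8.31 with PBS. No groups overlapped, and the siNTC arrays with Ang II stood only slightly above the siGiver arrays without it. The Ang II effect was 1.72 ± 0.044 log2 in siGiver cells (SE, 2 arrays per group, limma adjusted p = 1.35e-06) and 0.64 ± 0.044 in siNTC cells (adjusted p = 0.000248). Its interaction of 1.07 ± 0.062 (adjusted p = 0.000349) is a 2.10-fold larger ratio of Ang II to PBS in siGiver cells, and it ranked 26th by size among the genes with a positive call. With Ang II, Fosl1 was 2.83-fold higher in siGiver than siNTC cells, the 9th largest positive call of that comparison.

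Fos, the founding member of the family and a standard marker of recent stimulation, had log2 levels of 8.40 and 8.30 in siGiver Ang II, 6.97 and 7.18 in siGiver PBS, 7.38 and 7.33 in siNTC Ang II and 6.68 and 6.77 in siNTC PBS arrays. Levels did not overlap between any groups, and siNTC cells with Ang II lay above siGiver cells without it. Ang II raised Fos by 1.27 ± 0.076 log2 in siGiver cells (SE, adjusted p = 5.42e-05 by limma) and by 0.63 ± 0.076 in siNTC cells (adjusted p = 0.00425). The interaction was 0.64 ± 0.108 (adjusted p = 0.0149). This call was lost without siNTC PBS replicate 2 (0.60, adjusted p = 0.0602), siNTC Ang II replicate 2 (0.62, 0.0576) or siGiver Ang II replicate 1 (0.59, 0.0518), over a range of 0.000263 to 0.337 in all 16 alternatives. A dimmer Fos probe set, at 5.17 to 5.84 on the 8 arrays, was called in none of the 5 comparisons, and with the mean of both probe sets the interaction was 0.17 (adjusted p = 0.337) and the Ang II effect was 0.50 in siGiver and 0.33 in siNTC cells.

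Fosb, which resembles Fos and also has a shorter splice form without an activation domain, had log2 levels of 8.0 and 7.92 in siGiver Ang II, 6.72 and 6.82 in siGiver PBS, 6.66 and 6.61 in siNTC Ang II and 6.20 and 6.30 in siNTC PBS arrays. Its siGiver arrays without Ang II already lay above the siNTC arrays with Ang II. The Ang II effect was 1.19 ± 0.059 log2 in siGiver cells (SE, limma adjusted p = 2.09e-05) and 0.39 ± 0.059 in siNTC cells (adjusted p = 0.01), with an interaction of 0.80 ± 0.083 (adjusted p = 0.00236). The siNTC call was lost without siNTC PBS replicate 1 (0.34, adjusted p = 0.0743), siNTC Ang II replicate 1 (0.37, 0.067) or siNTC Ang II replicate 2 (0.41, 0.0544), with 0.00183 to 0.0743 over 17 alternatives.

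Fosl2 (Fra-2), the fourth Fos protein, passed neither test of Ang II with all arrays. It read 6.87 and 7.10 in siGiver Ang II, 6.46 and 6.83 in siGiver PBS, 6.46 and 6.38 in siNTC Ang II and 6.08 and 6.30 in siNTC PBS arrays, with wider gaps between replicates than the other Fos genes in both siGiver groups. Its Ang II effects, 0.34 ± 0.133 in siGiver cells (SE, adjusted p = 0.125) and 0.23 ± 0.133 in siNTC cells (adjusted p = 0.342), did not pass in limma. In siGiver cells the effect was called without siGiver PBS replicate 2 (0.52, adjusted p = 0.0446) and with trended robust moderation (0.0397), over a range of adjusted p up to 0.475. It was 0.15 without siGiver PBS replicate 1 and 0.22 without siGiver Ang II replicate 2, and in siNTC cells it was 0.12 without siNTC PBS replicate 1. The interaction of 0.10 had a 95% confidence interval of -0.33 to 0.54, which includes no difference. A second Fosl2 probe set gave Ang II effects of 0.21 in siGiver and 0.21 in siNTC cells, also not called.

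**Figure D2:**
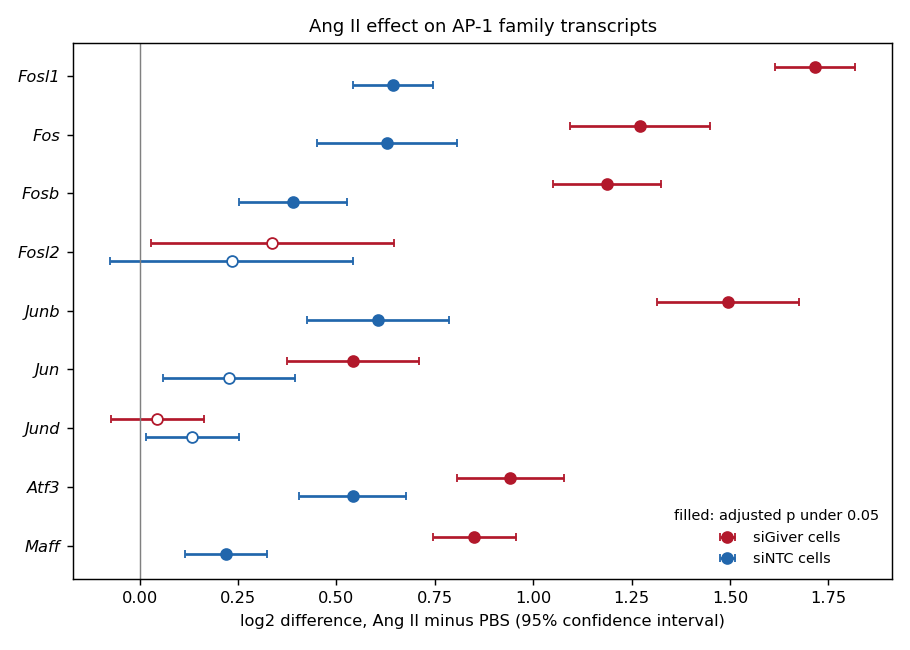
Ang II effect on each member as log2 difference (Ang II minus PBS) with its 95% confidence interval from the limma fit, in siGiver cells (red, upper) and siNTC cells (blue, lower); filled points have an adjusted p under 0.05. The intervals of the 2 arms do not overlap for Fosl1, Fos, Fosb, Junb, Atf3 and Maff, the members called in the interaction.

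Among the Jun proteins, Junb, an immediate early gene whose protein is a weaker activator than Jun at many sites, changed order between treatments. Its log2 level was 9.94 and 9.97 in siGiver Ang II and 8.49 and 8.44 in siGiver PBS arrays, against 9.38 and 9.50 in siNTC Ang II and 8.72 and 8.94 in siNTC PBS arrays. The siGiver cells were thus below siNTC cells in PBS and above them with Ang II. Ang II raised Junb by 1.5 ± 0.077 log2 in siGiver cells (SE, 2.82-fold, limma adjusted p = 2.46e-05) and by 0.61 ± 0.077 in siNTC cells (adjusted p = 0.00519). The interaction was 0.89 ± 0.109 (adjusted p = 0.00482), with a 95% confidence interval of 0.63 to 1.14.

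Jun, the main activating partner of Fos proteins, responded less. It read 9.70 and 9.77 in siGiver Ang II, 9.13 and 9.26 in siGiver PBS, 9.29 and 9.25 in siNTC Ang II and 8.96 and 9.13 in siNTC PBS arrays. The siGiver arrays with Ang II lay above all others and the siNTC arrays with PBS below all others (by less than the rounding of the printed levels in 1 case), while the remaining 2 groups overlapped. The rise of 0.54 ± 0.072 log2 in siGiver cells passed (SE, limma adjusted p = 0.00256), and the difference of 0.23 ± 0.072 in siNTC cells did not (adjusted p = 0.115). The interaction, 0.32 ± 0.102, did not pass either (adjusted p = 0.121), so a difference between the arms is not shown. Both dimmer Jun probe sets were also called higher with Ang II in siGiver cells, at 0.27 and 0.41 log2, and not in siNTC cells, at 0.17 and 0.24.

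Jund, a Jun protein present at a steady level in resting cells of many tissues, had the smallest Ang II effects of the 9 members when each was read from its brightest probe set. It read 11.29 and 11.27 in siGiver Ang II, 11.19 and 11.27 in siGiver PBS, 11.73 and 11.78 in siNTC Ang II and 11.59 and 11.66 in siNTC PBS arrays. All 4 siGiver arrays were below all 4 siNTC arrays. The Ang II effect was 0.045 ± 0.051 log2 in siGiver cells (SE, adjusted p = 0.572, limma) and 0.13 ± 0.051 in siNTC cells (adjusted p = 0.171). With the mean of its 2 probe sets that passed the filter, the siNTC difference was 0.26 (adjusted p = 0.0397), above those of Fosl2 (0.22), Maff (0.22) and Jun (0.21) in that setting. The dimmer of the pair alone gave 0.38 in siNTC cells, which did not pass (adjusted p = 0.0675 over all probe sets). For the brightest probe set trended robust moderation also made the call, and the adjusted p lay between 0.0169 and 0.46 over 17 alternatives. The remaining Jund probe set lay below the filter, with a mean of 4.30.

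Atf3, whose levels rise in many stress responses, read 7.47 and 7.50 in siGiver Ang II and 6.60 and 6.49 in siGiver PBS arrays, against 7.56 and 7.54 in siNTC Ang II and 6.95 and 7.06 in siNTC PBS arrays. Both arms lay close together with Ang II, and the siGiver arrays were lower without it. Ang II raised Atf3 by 0.94 ± 0.058 log2 in siGiver cells (SE, limma adjusted p = 5.95e-05) and by 0.54 ± 0.058 in siNTC cells (adjusted p = 0.00257). The interaction of 0.40 ± 0.082 was past the threshold (adjusted p = 0.0312), and it passed in 7 of 16 alternatives, whose adjusted p ranged from 0.0131 to 0.102. It was lost without siNTC PBS replicate 2 (0.35), siNTC Ang II replicate 1 (0.42) or 2 (0.39), siGiver PBS replicate 2 (0.34), or siGiver Ang II replicate 1 (0.42) or 2 (0.38), and with no filter (adjusted p = 0.0594).

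Maff, a partner of Nrf and Bach factors at Maf recognition elements, read 9.12 and 9.06 in siGiver Ang II, 8.23 and 8.25 in siGiver PBS, 8.56 and 8.57 in siNTC Ang II and 8.37 and 8.32 in siNTC PBS arrays. The groups did not overlap, and replicates lay close together. Ang II raised it by 0.85 ± 0.045 log2 in siGiver cells (SE, 1.80-fold, limma adjusted p = 2.79e-05) and by 0.22 ± 0.045 in siNTC cells (adjusted p = 0.0333). The interaction was 0.63 ± 0.064 (adjusted p = 0.00203). The siNTC call was lost in 12 of 17 alternatives, among them each of the 8 fits without 1 array, with 0.19 to 0.25 log2 and an adjusted p up to 0.151.

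The Giver siRNA itself shifted the family in both directions without Ang II. In PBS, all 4 Fos genes were higher in siGiver than siNTC cells, Fosb by 0.52 ± 0.059 log2 (SE, adjusted p = 0.000512), Fosl2 by 0.46 ± 0.133 (0.0311), Fosl1 by 0.43 ± 0.044 (0.000343) and Fos by 0.35 ± 0.076 (0.00965). Atf3 was lower by -0.47 ± 0.058 (adjusted p = 8e-04), Jund by -0.39 ± 0.051 (0.000955) and Junb by -0.37 ± 0.077 (0.00821). Jun (0.15, adjusted p = 0.143) and Maff (-0.11, 0.103) did not pass. The 4 higher and 3 lower calls among 9 members compare with 16% of all genes higher and 19.1% lower in this comparison (35% in either direction), and the median member stood at 0.15 log2. Arrays did not overlap for 5 higher and 4 lower members, against 31.5% and 35.7% of all genes. The Fos call was lost without siNTC PBS replicate 1 (0.31, adjusted p = 0.0603, with 0.000897 to 0.0603 over 17 alternatives). The Fosl2 call was lost without siNTC PBS replicate 1 (0.35, adjusted p = 0.165) or siGiver PBS replicate 2 (0.27, 0.143) and with no filter (0.46, 0.0501), with 0.0034 to 0.165 over 17 alternatives.

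With Ang II, 7 members were higher in siGiver than siNTC cells and Jund was lower. Fosl1 differed by 1.5 ± 0.044 log2 (SE, adjusted p = 1.86e-06), Fosb by 1.32 ± 0.059 (9.2e-06) and Fos by 0.99 ± 0.076 (6.3e-05). Fosl2 (0.56), Maff (0.52), Junb (0.52) and Jun (0.47) were also higher, with limma adjusted p of 0.0107, 0.000104, 0.00127 and 0.00147. Jund was lower by -0.48 ± 0.051 (adjusted p = 0.000258), and Atf3 did not pass at -0.065 (adjusted p = 0.407, 95% confidence interval -0.20 to 0.07). Among all genes, 19.5% were higher and 24.8% lower (44.3% in either direction). Arrays did not overlap for 7 higher and 2 lower members, against 31.7% and 40.7% of all genes. The Fosl2 call was lost without siNTC Ang II replicate 2 (0.52, adjusted p = 0.0558) or siGiver Ang II replicate 2 (0.45, 0.0634), with 0.000445 to 0.0634 over 17 alternatives.

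**Figure D3:**
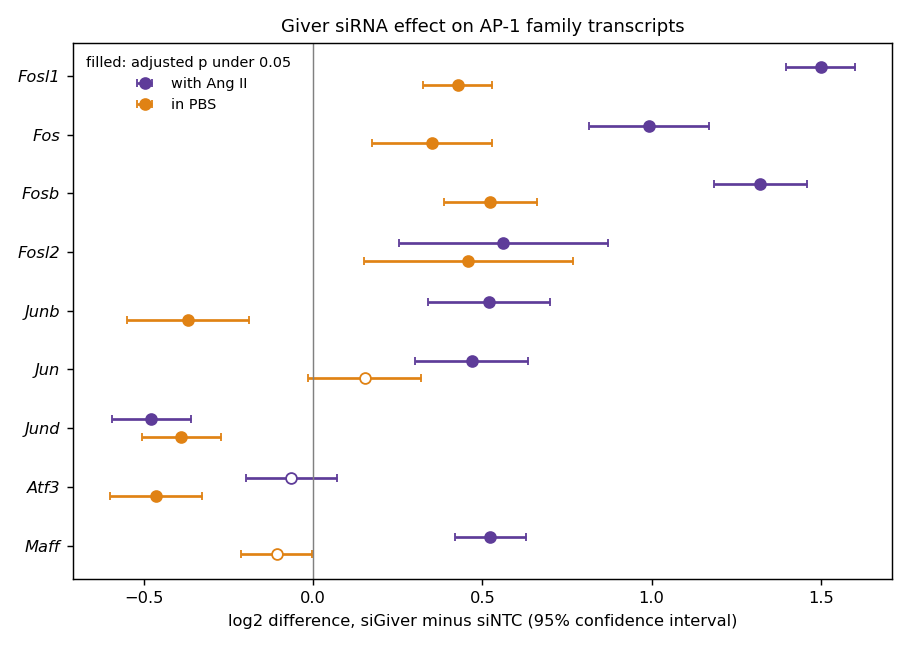
Giver siRNA effect on each member as log2 difference (siGiver minus siNTC) with its 95% confidence interval from the limma fit, with Ang II (purple, upper) and in PBS (orange, lower); filled points have an adjusted p under 0.05. Fos genes are to the right of 0 in both treatments, Jund is to the left in both, and Junb lies at -0.37 in PBS and 0.52 with Ang II.

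The probe sets of a gene were compared as a check, with p-values adjusted over every probe set that passed the filter. Of 4 members with more than 1 probe set, Fosl2 gave like siRNA effects from both, at 0.46 and 0.42 log2 in PBS and 0.56 and 0.42 with Ang II, all called higher. For Jund, the dimmer probe set was called lower with Ang II (-0.41, adjusted p = 0.0103) and not in PBS (-0.15, 0.251). For Jun, the probe sets differed on the siRNA effect with Ang II: 2 were called higher (0.47 and 0.42) and 1 was not (0.058, adjusted p = 0.508). In this wider adjustment Fosl1, Fos, Fosb, Junb and Maff passed the interaction test, and Atf3 did not (0.40, adjusted p = 0.0571). The brightest Jun probe set, the Jun probe set that was not called higher by the siRNA with Ang II, and the dimmer Jund one carry the suffix s, which the array maker gives to probe sets that can match more than 1 transcript.

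**Figure D4:**
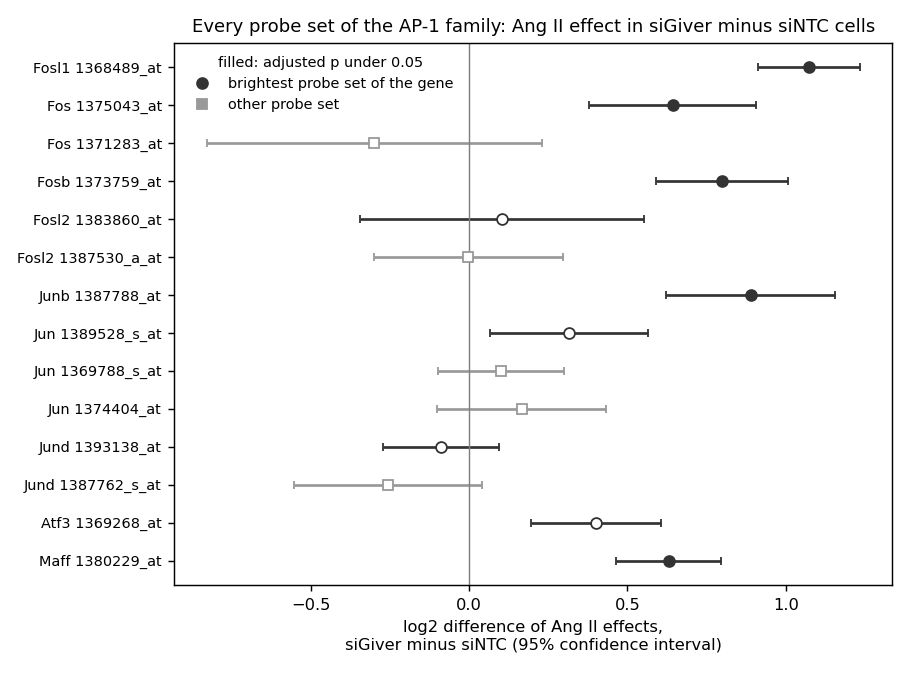
Interaction (Ang II effect in siGiver minus siNTC cells, log2) with its 95% confidence interval for each of the 14 member probe sets that passed the filter, with p-values adjusted over every such probe set on the array. The brightest probe set of each gene is a circle and other probe sets are squares; the dimmer Fos probe set lies at -0.30 with an interval that includes 0.

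Genes whose levels followed those of a member most closely over the 8 arrays were listed by Pearson correlation, among genes with a range of at least 1 log2 between group means (244 candidates for Fosl1). The arrays fall into 4 groups, so a high value reflects like order and spacing of the groups. For Fosl1 these were Mustn1 (r = 0.997 over 8 arrays), Hivep3 (0.996) and Cdc42ep3 (0.995), and for Fosb they were F3, the gene of tissue factor (0.998), Zfp697 (0.996) and the ERK phosphatase gene Dusp5 (0.994). Fos was followed by Cdc42ep3 (0.992), Mustn1 (0.991) and Fosl1 itself (0.990). Junb was followed by Fam110c (0.998), the potassium channel gene Kcnn4 (0.993) and Spry2, an inhibitor of growth factor signalling (0.990). Maff was nearest to Flt1, a receptor of vascular endothelial growth factor (0.999), the ephrin receptor gene Epha2 (0.996) and Pard6b (0.994). Atf3 had lower values, with Tnfrsf12a at 0.984, Cxcl2 at 0.981 and Sprr1a at 0.976.

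Related genes were described with 3 lists. Of 33 kinases, phosphatases and factors upstream of AP-1, 24 were tested. In siGiver cells 12 rose with Ang II and 1 fell, in siNTC cells 3 rose and none fell, and 6 had a positive interaction, with a list median of 0.15 log2 for the interaction. These 6 were Dusp5, Dusp6, Dusp1, Map2k3, Srf and Elk4. Elk4 was lower in siGiver than siNTC cells in PBS (-0.615) and with Ang II (-0.28), whereas the others were called higher with Ang II. Of all genes, 9.11% rose and 7.17% fell with Ang II in siGiver cells, and 3.96% rose and 2.17% fell in siNTC cells. A positive interaction was called for 3.35% of all genes and a negative one for 2.87%. Dusp5 and Dusp6 encode phosphatases that inactivate ERK, and their Ang II effects were 2.14 and 1.78 log2 in siGiver cells, against 0.62 and 0.38 in siNTC cells, with interactions of 1.52 ± 0.094 and 1.39 ± 0.071 (SE). Map2k3, a kinase that activates p38, rose by 0.73 in siGiver cells and stood at 0.08 in siNTC cells, where it did not pass (interaction 0.65 ± 0.064). Dusp1, a phosphatase of p38 and JNK, had an interaction of 0.42 ± 0.063. Transcripts of the JNK genes Mapk8 and Mapk9 had interactions of -0.008 and -0.10, neither called.

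Of 26 other bZIP factors, 23 were tested. With Ang II, 6 rose and 1 fell in siGiver cells and 7 rose and none fell in siNTC cells, and 2 had a positive and 1 a negative interaction. The list median for the interaction was -0.025 log2, near that of all genes. The shares of all genes were 9.11% higher and 7.17% lower with Ang II in siGiver cells and 3.96% and 2.17% in siNTC cells. For the interaction they were 3.35% positive and 2.87% negative. Nfil3, a bZIP repressor, rose by 2.58 in siGiver and 1.81 in siNTC cells (interaction 0.77 ± 0.092), and Cebpd by 0.65 and 0.36 (interaction 0.29 ± 0.066). Between the arms, Nfil3 was higher in siGiver cells in PBS (0.24) and with Ang II (1.01). Cebpd was lower in siGiver cells in PBS (-0.37) and did not differ past the threshold with Ang II (-0.08). Ddit3, the stress factor CHOP, went the other way (interaction -0.65 ± 0.059). Its Ang II effect was -0.10 in siGiver cells, which did not pass, against a rise of 0.55 in siNTC cells. Without Ang II, however, its mean level was already 10.19 in siGiver arrays, against 9.61 in siNTC arrays (siRNA effect 0.58, limma adjusted p = 9.07e-05). With Ang II the arms lay close together, at 10.09 and 10.16 (siRNA effect -0.07, adjusted p = 0.246). Of the small Maf partners of the list, Mafk (0.51) and Mafg (0.24) rose with Ang II in siGiver cells, and their interactions of 0.39 and 0.19 did not pass.

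Of 23 genes known from mammals to carry AP-1 sites, 22 were on the array and 17 were tested, with 5 below the filter. With Ang II, 12 rose in siGiver and 6 in siNTC cells and none fell in either, and 4 had a positive interaction (list median 0.11 log2). Those 4 were Ptgs2, Hbegf, Plaur and Edn1. Beside these counts, 9.11% of all genes rose with Ang II in siGiver cells, 3.96% rose in siNTC cells and 3.35% had a positive interaction. Hbegf encodes a growth factor of the EGF family. Its log2 level was 9.48 and 9.55 in siGiver Ang II and 7.73 and 7.77 in siGiver PBS arrays. In siNTC arrays it was 8.24 and 8.25 with Ang II and 7.69 and 7.82 with PBS. The arms thus overlapped in PBS (siRNA effect -0.005 log2), where Fosl1 was higher in siGiver cells. The Hbegf interaction was 1.28 ± 0.081 (SE, limma adjusted p = 0.000366). That of Plaur, the urokinase receptor gene, was 1.11 ± 0.087 (adjusted p = 0.000743). Ptgs2, which encodes cyclooxygenase 2, had an interaction of 1.5 ± 0.124 but was lower in siGiver cells in PBS (-1.67) and did not differ past the threshold with Ang II (-0.17, adjusted p = 0.152). Il6 and Ccl2, listed as genes with AP-1 sites, had interactions of 0.065 and 0.07, not called, and were lower in siGiver cells in both treatments (-0.48 and -0.29 with Ang II, -0.54 and -0.36 in PBS).

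**Figure D5:**
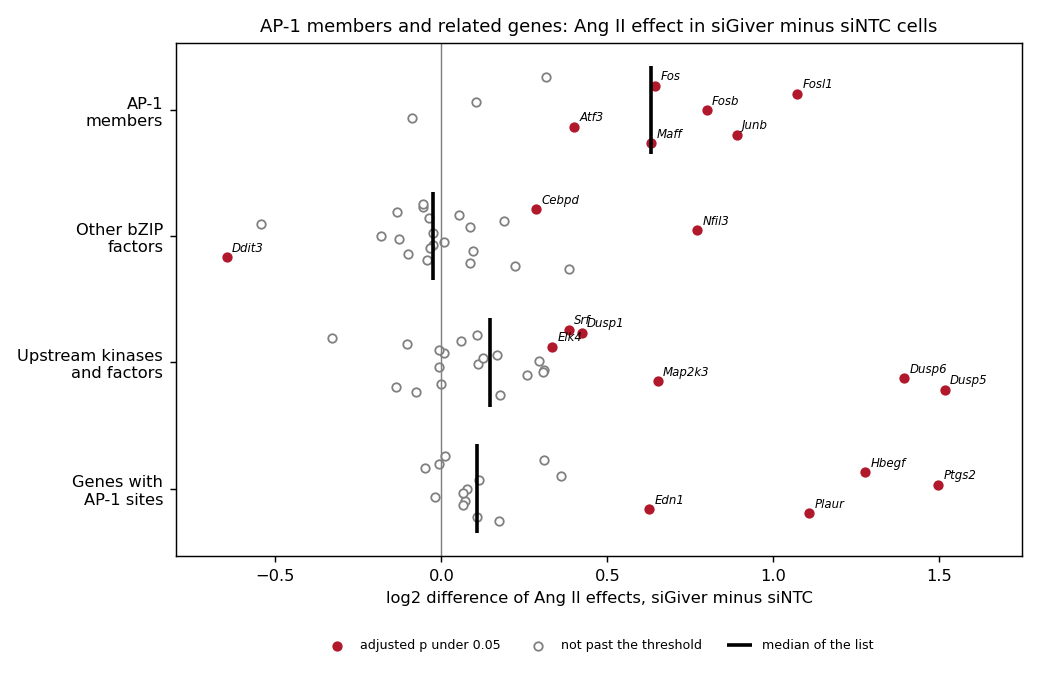
Interaction (Ang II effect in siGiver minus siNTC cells, log2) of each AP-1 member and of each tested gene of 3 related lists; points are genes, spread vertically only to separate them, filled red where the adjusted p is under 0.05, and the thick line is the list median. The medians are 0.63 for AP-1 members, -0.025 for other bZIP factors, 0.15 for upstream kinases and factors and 0.11 for genes with AP-1 sites.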

How the data were processed

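RNA was measured in 8 samples on Affymetrix rat arrays (5 ug of total RNA each, biotin label, per the labels). The deposited values are log2 probe set levels made by the authors, 1 per probe set and array. The submitters' processing notes list RMA and Partek without a version. RMA corrects background, makes array distributions alike by quantile normalization and summarises probes, so levels compare 1 probe set across arrays, never different probe sets. Array medians were 6.15 to 6.19, and replicates correlated at 0.998. Arrays have no read depth, and their number limits the precision.

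Probe sets were named through GEO's platform annotation, with symbols updated by gene identifier (20764 of 20832 with 1 symbol matched; 436 carry several symbols and 9780 are not listed). Probe sets with a mean under the 30th percentile (4.81 log2) were left out, and each symbol kept its brightest probe set (11377 genes). All 8 arrays entered a single limma 3.58.1 model (R 4.3.3) that had a mean for each group, with 4 residual and 3.53 prior degrees of freedom; p-values were adjusted by Benjamini-Hochberg over all genes. The fit was tested on simulated data with known changes. For the interaction it recovered 10% of 1.25-fold, 76% of 1.5-fold and 96% of 2-fold changes. The simulated noise was drawn from the fitted model, so the assumptions of that model were not tested.

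The named genes are the 9 members, up to 4 genes per list with the smallest p among those called in the interaction, and 3 genes of like pattern for each member called there; Srf, Elk4, Mapk8, Mapk9, Mafk, Mafg, Il6 and Ccl2 were named after their values were seen. The members and lists were chosen with earlier results of these data known. Same-numbered arrays of different groups deviated together at correlations between -0.172 and 0.0961, so the numbers were not taken as pairs. No batch information was used here. Alternatives were other filters (none, 50th percentile), averaged probe sets per gene, all probe sets tested singly, cyclic loess, median subtraction, trended robust moderation, only the arrays compared, the replicate number as a block, and each array left out.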

Additional observations from a re-analysis of the deposited data

Results flagged for a closer look

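The Ang II effect differed between siGiver and siNTC cells for 6 members by the test of the difference itself (limma interaction, adjusted over 11377 genes), and each was larger in siGiver cells. The differences were 1.07 log2 for Fosl1, 0.89 for Junb, 0.80 for Fosb, 0.64 for Fos, 0.63 for Maff and 0.40 for Atf3. Their adjusted p were 0.000349, 0.00482, 0.00236, 0.0149, 0.00203 and 0.0312. The Fos and Atf3 calls did not hold in every alternative fit, and the mean of both Fos probe sets gave 0.17 log2. Between the arms (siGiver minus siNTC), Atf3 stood at -0.065 log2 with Ang II and at -0.47 in PBS. In each arm 2 of 2 arrays with Ang II were above 2 of 2 arrays with PBS for all 6. This pattern was met by 26.7% of all genes in siGiver and 28.2% in siNTC cells. All 6 were already called higher with Ang II in both arms, so the pattern adds no separate support. The 5S ribosomal RNA control probe set was highest in siNTC arrays with Ang II (8.90 ± 0.032, SD, n = 2), against 8.20 ± 0.067 in siNTC arrays with PBS, and read 7.74 ± 0.037 and 7.63 ± 0.010 in siGiver arrays with Ang II and PBS. Its part in the differences was not tested.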

How the results depend on the processing

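Over all members, comparisons and alternatives, 712 member values kept their direction and their side of the threshold, 34 lost and 7 gained a call, and 3 changed sign. Many of these values could not change direction. Other filters, single probe sets, trended robust moderation, the replicate block and the arrays compared alone leave the log2 difference as it was. So does leaving out an array of a group outside the comparison. In those fits only the adjusted p could move. The 3 sign changes were of the Fosl2 interaction, which was not called, at -0.006 without siNTC PBS replicate 2, -0.08 without siGiver PBS replicate 1 and -0.01 when siGiver Ang II replicate 2 was left out. With 1 array left out this value ranged from -0.08 to 0.287. The number of members called stayed within 1.5 times under every alternative: with 1 array left out it was 7 to 8 for Ang II in siGiver cells, 4 to 5 for Ang II in siNTC cells, 5 to 7 for the siRNA in PBS, 7 to 8 for the siRNA with Ang II and 4 to 6 for the interaction. Counts over all genes moved more: with 1 array left out, the interaction gave 356 to 435 calls (707 with all arrays), Ang II in siNTC cells 226 to 526 (698) and Ang II in siGiver cells 866 to 1740 (1852). Trended robust moderation gave 1490, 1496 and 2802, no filter gave 467 for the interaction and 420 for Ang II in siNTC cells, a filter at the 50th percentile 1066 for Ang II in siNTC cells, and the arrays compared alone 422 for Ang II in siNTC and 1211 in siGiver cells. Each probe set on its own gave 7751 calls for the siRNA with Ang II and 6042 in PBS, against 5037 and 3986 genes. With the replicate number as a block, 5 members were called for the interaction (without Atf3, adjusted p = 0.0582) and 5 for Ang II in siNTC cells (without Maff, adjusted p = 0.0526), and no other member call changed. Trended robust moderation also called Jun for the interaction (0.32, adjusted p = 0.0114), for Ang II in siNTC cells (0.23, 0.00994) and for the siRNA in PBS (0.15, 0.039), Jund for Ang II in siNTC cells (0.13, 0.0169) and Fosl2 for Ang II in siGiver cells (0.34, 0.0397). The other gains were Jund for Ang II in siNTC cells with averaged probe sets (0.26, 0.0397) and Fosl2 for Ang II in siGiver cells without siGiver PBS replicate 2 (0.52, 0.0446). With 2 arrays per group, small differences of the Ang II effects may pass undetected, and the dimmer probe sets do not settle the values of Fos and Jun.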
